A study of Mus musculus with 12 samples.

Results

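The matrix metalloproteinases (Mmp genes), the ADAMTS proteases with the related ADAMTS-like proteins (Adamts and Adamtsl genes) and the tissue inhibitors of metalloproteinases (Timp genes) were followed as one group of extracellular matrix genes in mouse cortical bone. Members were taken by symbol from the deposited normalized table, without use of any measured difference, and numbered 40 of its 17408 genes: 15 Mmp, 16 Adamts, 5 Adamtsl and 4 Timp genes. The deposited count table lists 49315 genes. The annotation names 51 genes of these families in all, and the 11 outside the symbol rule (Adamts13, Adamts16, Adamts19, Mmp1a, Mmp1b, Mmp3, Mmp7, Mmp10, Mmp20, Mmp21 and Mmp24) had at most 12 counts in any library. All 40 members passed the filter on low counts, and 38 of them had at least 10 counts in every library.

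Bulk RNA-seq was done on the femoral shafts of male mice aged 12 weeks, after the marrow had been spun out. The 4 groups were catalase knockout (Cat -/-) mice given ethanol (libraries 4 to 6), catalase knockout mice given PBS (libraries 1 to 3), wild-type (Cat +/+) mice given ethanol (libraries 10 to 12) and wild-type mice given PBS (libraries 7 to 9). Ethanol was given by gavage once a day for 4 days at 3, 3, 4 and 4.5 g per kg of body weight from a 31.5% (v/v) solution, control mice received the same volume of PBS, and all were killed 6 hours after the last dose. Each library held RNA pooled from 2 mice, with 3 libraries per group, so p-values measure the spread between pools.

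MMPs are zinc-dependent proteases that cut collagens, gelatin and other matrix proteins. Most are secreted as inactive precursors and some are anchored to the cell membrane. ADAMTS proteases include enzymes that trim procollagens so that fibrils can form and enzymes that cut aggrecan, versican and related proteoglycans, while ADAMTS-like proteins lack the protease domain and bind fibrillin microfibrils. TIMPs bind the active site of MMPs and, in the case of TIMP3, also that of several ADAMTS enzymes. In bone, MMP13 is made by osteoblast-lineage cells and hypertrophic chondrocytes, MMP9 by osteoclasts and neutrophils, and MMP8 is best known as the neutrophil collagenase.

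Library totals ran from 19950222 to 28789308 counts. Replicate libraries differed by more than sampling noise in every pair, with a mean chi-square per gene of 8.53 to 164. The catalase transcript itself was at 69.0 to 74.2 CPM (counts scaled to the library size) in the knockout with ethanol and 65.9 to 70.1 CPM in the knockout with PBS, against 144 to 172 CPM in wild type with ethanol and 128 to 175 CPM in wild type with PBS. The genotypes did not overlap, although the labels do not state which exons the allele lacks. Libraries 8 and 9 (wild type, PBS) and 12 (wild type, ethanol) stood apart in muscle RNA: 12 skeletal muscle markers took 2.64% to 3.14% of their counts and 0.118% to 1.69% in the other 9 libraries. All 10 osteoblast, all 10 osteoclast and all 7 osteocyte markers were detected in all 12 libraries, as were all 10 neutrophil markers, whose summed level was 23249 to 41450 CPM.

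The member whose rise carried the most counts, Mmp13, has in its proximal promoter a match to the binding sequences of both AP-1 (the FOS and JUN dimer) and RUNX factors. Its promoter is shown from 250 bases before to 50 bases after the start of transcription (RefSeq, GRCm38.p6, chr9:7272264-7272563, plus strand), in lower case with the RUNX letters AACCACA and the AP-1 letters TGACTCA in capitals.
Mmp13 promoter: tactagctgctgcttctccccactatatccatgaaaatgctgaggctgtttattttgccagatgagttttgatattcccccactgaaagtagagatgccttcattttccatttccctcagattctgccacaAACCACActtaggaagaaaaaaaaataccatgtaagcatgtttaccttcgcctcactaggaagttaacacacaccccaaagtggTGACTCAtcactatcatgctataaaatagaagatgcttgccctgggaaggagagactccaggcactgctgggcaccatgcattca
The RUNX match begins 119 bases and the AP-1 match 35 bases before the start. The motifs were searched on both strands: TGAGTCA with its reverse complement TGACTCA for AP-1, AACCACA with TGTGGTT for RUNX and TGACGTCA for the cyclic AMP response element. They occur in 5.20%, 5.27% and 1.79% of the 32851 promoters in the table. Promoters were listed for 27 of the 40 members and 9 of the 11 family genes outside the rule.

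Mmp13 lies in a cluster of 10 Mmp genes on chromosome 9 that holds 4 members (Mmp13, Mmp12, Mmp8 and Mmp27) and 6 genes outside the rule. AP-1 letters were found in the promoters of 2 members (Mmp13 and Mmp12) and of 5 genes outside the rule, and all 7 are in this cluster. They are shown as windows of the match, in capitals, with 12 bases on each side, written along each gene's own strand (RefSeq, GRCm38.p6), because the match recurs at 35 to 93 bases before the start of one listed promoter of each gene. Mmp12 and Mmp7 have 2 listed promoters each, and the other one of each held no AP-1 letters: for Mmp12 that is the window chr9:7344147-7344446, which holds the start of the annotated gene.
Mmp13, chr9:7272467-7272497, plus strand: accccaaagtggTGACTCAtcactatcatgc
Mmp12, chr9:7347318-7347348, plus strand: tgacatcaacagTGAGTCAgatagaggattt
Mmp1b, chr9:7388101-7388131, minus strand: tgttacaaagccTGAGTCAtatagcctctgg
Mmp3, chr9:7445764-7445794, plus strand: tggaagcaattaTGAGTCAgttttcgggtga
Mmp1a, chr9:7464056-7464086, plus strand: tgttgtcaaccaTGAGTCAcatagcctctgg
Mmp10, chr9:7502267-7502297, plus strand: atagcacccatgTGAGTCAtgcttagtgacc
Mmp7, chr9:7692015-7692045, plus strand: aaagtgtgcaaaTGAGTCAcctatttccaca
Only Mmp13 of these 7 genes was well expressed here, with 4889 to 16186 counts per library, against 14 to 41 for Mmp12, 2 to 12 for Mmp3 and at most 7 for Mmp1a, Mmp1b, Mmp7 and Mmp10. A further RUNX match among members was in the Mmp27 promoter. None of the 27 members held the cyclic AMP response element.

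The promoter of Mmp8, the other abundant collagenase of the cluster, and that of Adamts18, the member that fell most after ethanol, are shown for comparison (RefSeq, GRCm38.p6, chr9:7558179-7558478, plus strand, and chr8:113848790-113849089, minus strand). Neither held any of the 3 motifs, so there are no capitals. Of the listed members only Mmp13, Mmp12 and Mmp27 held any of them. A link between the motifs and the changes after ethanol was not tested.
Mmp8 promoter: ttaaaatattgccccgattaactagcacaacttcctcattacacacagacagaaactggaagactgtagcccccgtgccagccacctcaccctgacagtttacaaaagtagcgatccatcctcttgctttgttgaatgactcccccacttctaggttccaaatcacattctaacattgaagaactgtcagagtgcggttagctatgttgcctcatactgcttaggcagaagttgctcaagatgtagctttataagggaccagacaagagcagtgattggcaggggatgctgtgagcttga
Adamts18 promoter: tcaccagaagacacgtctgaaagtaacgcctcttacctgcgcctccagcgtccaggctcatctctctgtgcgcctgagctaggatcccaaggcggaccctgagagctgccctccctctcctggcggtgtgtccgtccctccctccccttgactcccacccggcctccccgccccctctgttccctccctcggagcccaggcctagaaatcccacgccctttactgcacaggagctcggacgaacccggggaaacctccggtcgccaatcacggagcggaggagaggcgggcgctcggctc
Base composition differed between these windows. The share of G and C was 43.7% for Mmp13 and 46.0% for Mmp8, below the median of 52.7% over all promoters in the table. The uncalled members Mmp12 and Mmp27 of the same cluster were below it too, at 38.7% to 40.7%. Every listed member outside the cluster was above the median, called or not, from 53.3% for Timp4 to 78.7% for Adamtsl3, with Adamts18 at 66.0%.

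The gelatinase Mmp9 and the collagenases Mmp8 and Mmp13 stood highest by level. Compared per kilobase of exon, Mmp9 (gelatinase B) had the highest mean level at 273 ± 47.1 CPM per kb (SD over 12 libraries). Mmp8 followed at 237 ± 50.9 CPM per kb and Mmp13 (collagenase 3) at 156 ± 55.7 CPM per kb, and the difference between Mmp9 and Mmp8 was within their spread. Timp2, at 87.9 ± 10.1 CPM per kb, was the most abundant inhibitor and lay above Mmp2 (gelatinase A, 45.1 ± 10.003 CPM per kb) and Mmp14 (the membrane-type MMP that activates pro-MMP2, 30.6 ± 3.52 CPM per kb). Timp3 and Timp1, at 17.9 ± 3.57 and 17.7 ± 3.90 CPM per kb, were within their spread of each other per kilobase of all exons. Their order depends on the length used, since per kilobase of the longest transcript Timp3 was at 30.8 and Timp1 at 17.8 CPM per kb. Among ADAMTS genes Adamts2 (16.0 ± 3.01 CPM per kb) and Adamts10 (14.4 ± 1.65 CPM per kb) were within their spread and above Adamts5 (5.74 ± 0.999 CPM per kb). By the longest transcript Adamts10 was at 28.8 and Adamts2 at 20.5 CPM per kb, and Mmp14 at 56.4 and Mmp2 at 49.4 CPM per kb, each the other way round. Of the ADAMTS-like genes, Adamtsl2, Adamtsl4 and Adamtsl5 were at 2.94, 2.71 and 2.15 CPM per kb, with spreads that overlapped. Timp4 was at 0.985 CPM per kb, and Mmp12 and Adamts20 were the lowest members at 0.138 CPM per kb each.

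**Figure D1:**
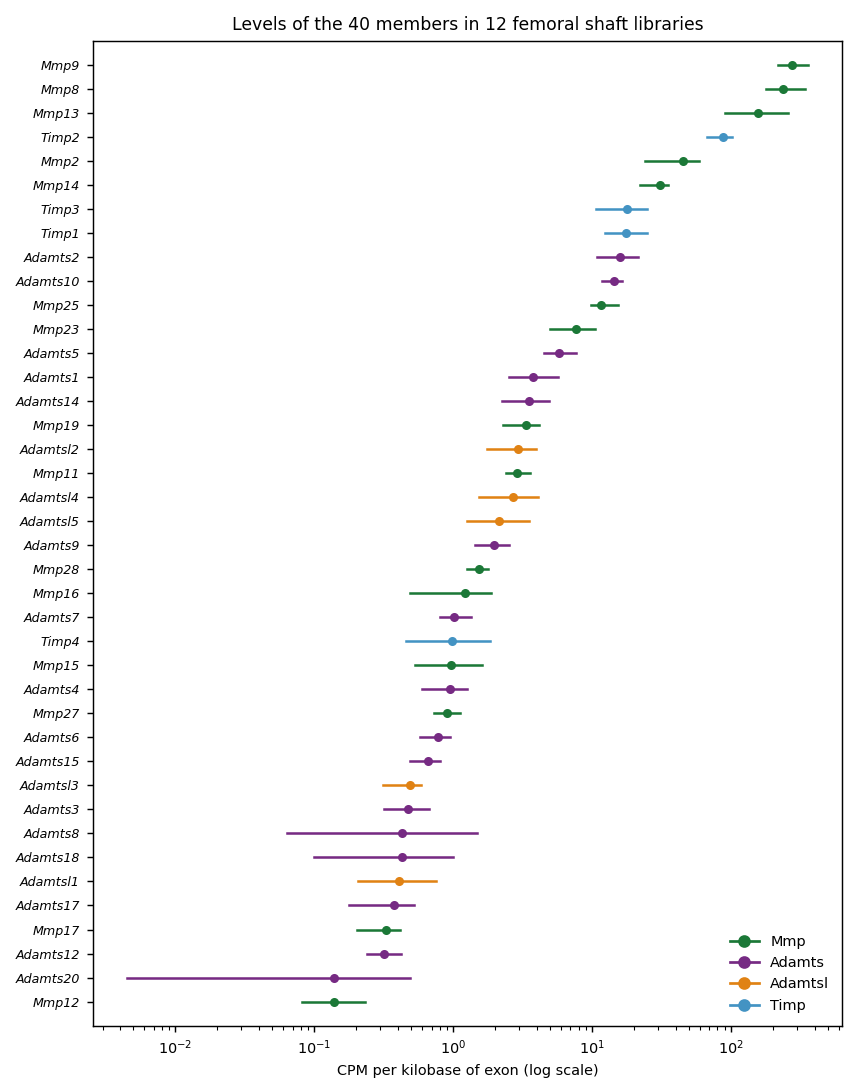
Mean level of each of the 40 members in CPM per kilobase of exon on a log axis (points), with lines from the lowest to the highest of 12 libraries and colour by family. Mmp9, Mmp8 and Mmp13 lie at the top, at 273, 237 and 156 CPM per kb, and the longest lines belong to Adamts20 and Adamts8.

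After binge ethanol the collagenase Mmp13 was higher and Adamts18 was lower in both genotypes. The membrane-type Mmp16 was lower in the knockout, and in wild type it was lower by point estimate without passing the test (log2 difference −0.94, adjusted p = 0.0829). When the ethanol effect was averaged over genotypes, 9 of 40 members passed the test (22.5%, where 10.8% of all 18161 tested genes were called). Of these, 3 rose (Mmp13, Adamts5 and Mmp8), where 5.02% of all genes rose, and 6 fell (Adamts18, Mmp16, Adamts2, Adamts17, Adamts14 and Mmp23), where 5.81% fell. The threshold was an adjusted p under 0.05 in edgeR's quasi-likelihood test, adjusted by Benjamini-Hochberg over every gene tested, and adjusted p-values of single genes are from that test where no other tool is given. The median log2 difference over the 40 members was −0.11, against −0.01 over all genes. In bulk tissue, fewer cells of a type and less RNA per cell cannot be told apart.

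Within the knockout, 3 members were called after ethanol (7.5%, where 1.87% of all genes were): Mmp13 rose, where 0.964% of genes did, and Adamts18 and Mmp16 fell, where 0.903% did. Within wild type, 2 members were called (5%, where 1.26% of all genes were): Mmp13 rose, where 0.556% of genes did, and Adamts18 fell, where 0.705% did. The libraries of the ethanol and PBS groups did not overlap for 7 members that were higher and 11 that were lower in the knockout, where 16.3% and 16.0% of all genes did so. In wild type these counts were 3 higher and 7 lower, against 7.32% and 9.06% of all genes. The median log2 difference of the members was −0.15 in the knockout and −0.10 in wild type, against 0.00 and −0.02 over all genes.

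**Figure D2:**
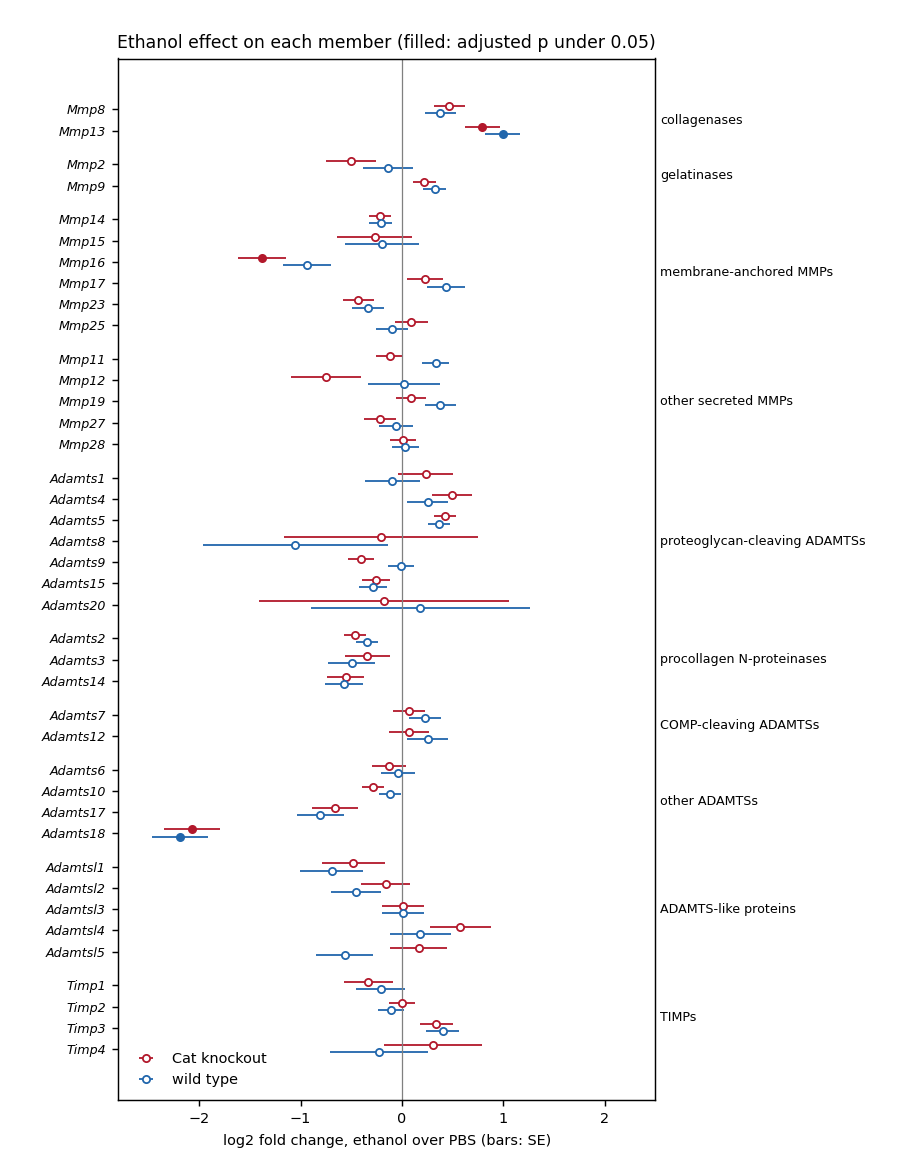
Log2 fold change, ethanol over PBS, of each of the 40 members in the knockout (red) and in wild type (blue), grouped by role, with bars of 1 SE and filled points for adjusted p under 0.05 (edgeR). Filled points are those of Mmp13 and Adamts18 in both genotypes and of Mmp16 in the knockout, and Adamts8 and Adamts20 have the widest bars.

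The 2 members grouped here as collagenases, Mmp13 and Mmp8, which cut the fibrillar collagens of bone, were both higher after ethanol. Membrane-anchored MMPs are described as a separate group below. Mmp13 (ENSMUSG00000050578, chromosome 9, 7272514 to 7283331, plus strand, GRCm38) had 559, 382 and 572 CPM in the knockout ethanol libraries, against 261, 302 and 309 CPM in the knockout PBS libraries. In wild type it had 688, 536 and 522 CPM with ethanol, against 304, 243 and 329 CPM with PBS. Every ethanol library was above every PBS library, across genotypes as well as within them. The log2 change was 0.80 in the knockout (SE 0.17, 1.74-fold, adjusted p = 0.0430), 0.99 in wild type (SE 0.17, 1.99-fold, adjusted p = 0.0298) and 0.89 averaged (SE 0.12, adjusted p = 0.0020). The averaged call held in all 20 alternative analyses, with a log2 change of 0.83 to 0.98. In the knockout the call was lost when library 1, 2, 3, 4, 6, 7, 9 or 11 was left out (log2 change 0.70 to 0.84, adjusted p 0.0506 to 0.160), and in wild type when library 1, 2, 3, 8, 9, 10 or 11 was left out (0.86 to 1.09, adjusted p 0.0508 to 0.0714). It was also lost in fits of only the 2 groups compared (0.79, adjusted p = 0.0678 in the knockout, and 1.01, adjusted p = 0.163 in wild type) and, in the knockout, with no low-count filter (adjusted p = 0.0781). Without the 3 muscle-rich libraries, which leaves 2 wild-type ethanol libraries and 1 wild-type PBS library, the values were 0.80 in the knockout (adjusted p = 0.0599) and 1.02 in wild type (adjusted p = 0.229).

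Mmp8 (chromosome 9, 7558456 to 7568485, plus strand) had 523, 660 and 680 CPM in the knockout with ethanol, against 434, 469 and 443 CPM in the knockout with PBS. In wild type it had 661, 598 and 829 CPM with ethanol and 526, 643 and 439 CPM with PBS. The knockout groups did not overlap and the wild-type groups did. It rose in the averaged comparison, by 0.42 on the log2 scale (SE 0.11, 1.34-fold, adjusted p = 0.0315). That call was lost when any of libraries 1, 2, 3, 5, 6, 7, 9 or 12 was left out, with a log2 change of 0.35 to 0.44 and an adjusted p of 0.0515 to 0.0765, and with no low-count filter (adjusted p = 0.0741). In the knockout it was not called, but it passed in the fit of only the 6 knockout libraries (0.46, adjusted p = 0.0342) and without libraries 8, 9 and 12 (0.47, adjusted p = 0.0213). The summed neutrophil markers were 24993 to 28124 CPM in the knockout with ethanol, 24958 to 25857 CPM in the knockout with PBS, 25070 to 39836 CPM in wild type with ethanol and 23249 to 41450 CPM in wild type with PBS, and 1 of the 10 markers (Cxcr2) was called in the averaged comparison. Their part in the Mmp8 result was not tested.

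**Figure D3:**
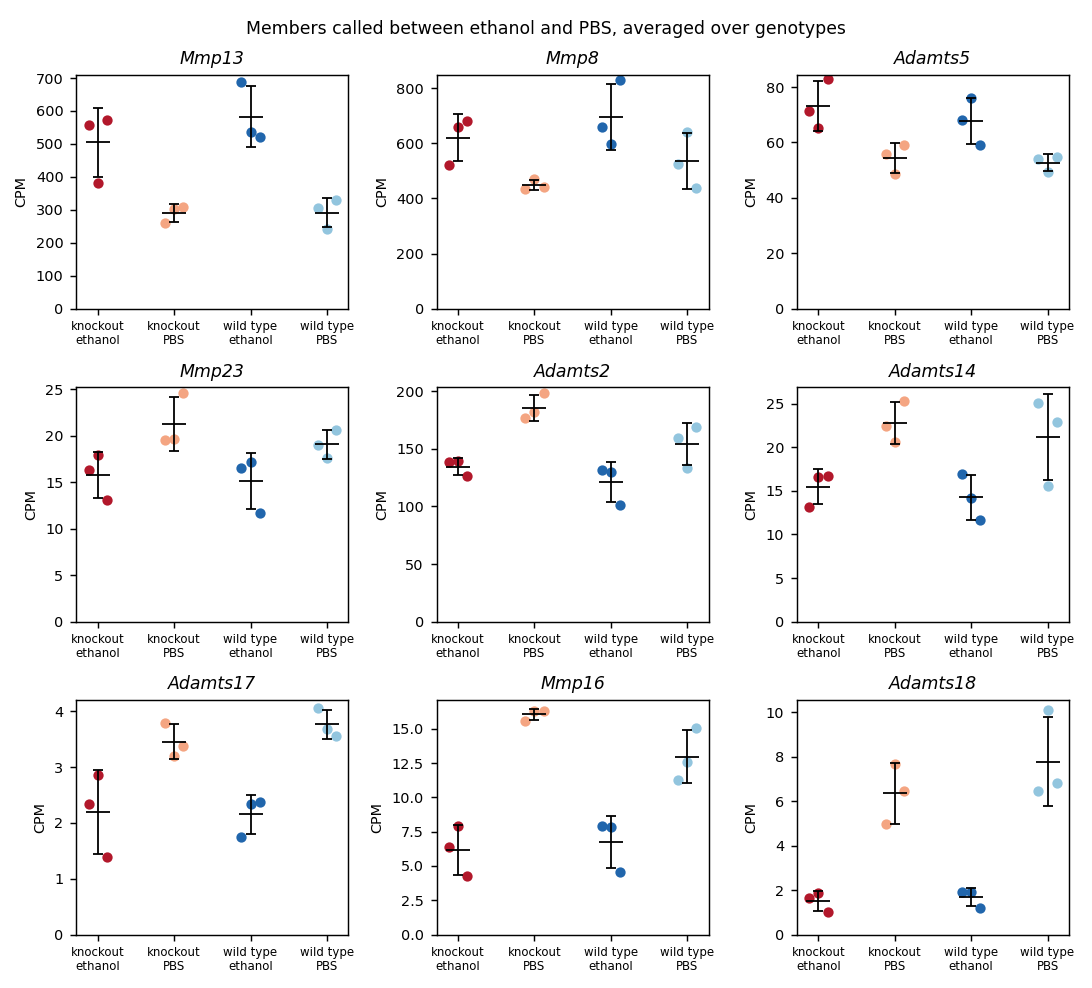
CPM of the 9 members called in the averaged ethanol comparison, by library (points), with the mean and SD of each group of 3 libraries (black). Panels run from the largest rise (Mmp13, log2 0.89) to the largest fall (Adamts18, −2.13). In the Mmp13, Adamts18, Mmp16, Adamts17 and Adamts5 panels no ethanol library overlaps a PBS library of either genotype, for Adamts5 by little.

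The gelatinases cut denatured collagen and basement membrane collagen, and neither was called. Mmp9 had 985, 922 and 912 CPM in the knockout with ethanol, against 769, 857 and 795 CPM in the knockout with PBS, groups that did not overlap. In wild type it had 1275, 1036 and 1230 CPM with ethanol and 917, 1112 and 801 CPM with PBS, which overlapped. Its averaged log2 difference was 0.27 (SE 0.08, adjusted p = 0.0510), and it passed in 9 of 20 alternative analyses, DESeq2 (adjusted p = 0.0124) and limma-trend (adjusted p = 0.0469) among them. Mmp2 was lower by point estimate, with an averaged log2 difference of −0.32 (SE 0.17, adjusted p = 0.280), and knockout ethanol library 6 held its lowest value, 81.6 CPM.

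Of the 6 membrane-anchored MMPs, 2 fell in the averaged comparison. Mmp16 (MT3-MMP, ENSMUSG00000028226, chromosome 4, 17852893 to 18119145, plus strand) had 6.38, 7.90 and 4.27 CPM in the knockout with ethanol, against 15.6, 16.3 and 16.3 CPM in the knockout with PBS. In wild type it had 7.88, 7.84 and 4.53 CPM with ethanol, against 11.3, 12.6 and 15.05 CPM with PBS. No ethanol library of either genotype reached the level of any PBS library. The log2 change was −1.38 in the knockout (SE 0.24, 0.385-fold, adjusted p = 0.0179) and −1.16 averaged (SE 0.17, 0.448-fold, adjusted p = 0.0025), and in wild type the value was −0.94 (SE 0.24, adjusted p = 0.0829). The knockout call was lost without library 1, 2, 3, 4 or 6 (adjusted p 0.0593 to 0.0850, log2 change −1.40 to −1.17), the averaged call in none of 20 alternative analyses. Without libraries 8, 9 and 12 the wild-type value was −0.51. In wild type it passed without library 6 (adjusted p = 0.0467) and with DESeq2 (adjusted p = 0.0047).

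Mmp23 fell by 0.38 on the log2 scale averaged over genotypes (SE 0.11, adjusted p = 0.0491). It had 16.4, 17.9 and 13.1 CPM in the knockout with ethanol and 19.5, 19.7 and 24.5 CPM in the knockout with PBS. In the wild type, 16.5, 17.1 and 11.7 CPM were measured with ethanol and 19.0, 17.6 and 20.7 CPM with PBS. The groups did not overlap within either genotype, but the call was lost without libraries 8, 9 and 12 (−0.29, adjusted p = 0.134) and when any library but 5 or 11 was left out (−0.42 to −0.30, adjusted p 0.0583 to 0.126). Mmp14 was at −0.21 averaged (SE 0.08, adjusted p = 0.109). The other 3, Mmp15, Mmp17 and the leukocyte enzyme Mmp25, were not called, and Mmp17 was at 0.33 averaged (adjusted p = 0.121).

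The 5 other secreted MMPs (Mmp11, Mmp12, Mmp19, Mmp27 and Mmp28) had no call in any ethanol comparison with edgeR, DESeq2 or limma-trend. At an unadjusted p under 0.05 there were 0 in the knockout, 2 in wild type (Mmp11 and Mmp19) and 1 averaged (Mmp19), where 16.4%, 16.0% and 26.2% of all genes were under it. Without library 7 Mmp19 was called averaged (0.33, adjusted p = 0.0433). The averaged log2 differences ran from −0.37 for the macrophage elastase Mmp12 to 0.24 for Mmp19 (adjusted p = 0.186). Mmp11, Mmp19 and Mmp28 overlap genes on the opposite strand that held 18912, 3281 and 5357 counts in all, against 2303, 3421 and 1705 for the members, and the labels do not state whether counting used strand, which makes the values of these 3 uncertain. The same holds for Adamts7, which overlaps Tbc1d2b.

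Among the 7 ADAMTS genes grouped as proteoglycan-cleaving, Adamts5, an aggrecanase that in mouse cartilage is the main one, was the only one called. It had 71.3, 65.1 and 82.8 CPM in the knockout with ethanol, against 55.7, 48.6 and 59.1 CPM in the knockout with PBS. Its wild-type values were 68.2, 76.0 and 59.2 CPM with ethanol, against 54.2, 49.2 and 54.6 CPM with PBS. All 6 ethanol libraries were above all 6 PBS libraries, although by little. Adamts5 (chromosome 16, 85856173 to 85901828, minus strand) rose by 0.39 on the log2 scale averaged over genotypes (SE 0.08, 1.31-fold, adjusted p = 0.0096), a call that held in all 20 alternatives, with 0.42 in the knockout (adjusted p = 0.0725) and 0.37 in wild type (adjusted p = 0.132). The knockout value passed in 6 alternatives, among them DESeq2 (adjusted p = 0.0134) and the fit without library 12 (adjusted p = 0.0460). The versican-cleaving enzymes Adamts1, Adamts9, Adamts15 and Adamts20, with Adamts8, were not called, at averaged values of −0.63 to 0.07, and neither was the aggrecanase Adamts4.

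The 3 procollagen N-proteinases, which remove the amino-terminal propeptide of fibrillar procollagens, were all lower after ethanol by point estimate, and 2 of them fell. Adamts2 (chromosome 11, 50602084 to 50807573, plus strand) had 138, 140 and 126 CPM in the knockout with ethanol, against 177, 182 and 198 CPM in the knockout with PBS. Wild-type bones held 132, 130 and 102 CPM with ethanol, against 160, 134 and 169 CPM with PBS. The groups did not overlap in either genotype, with the wild-type PBS library 8 close to the ethanol range. The averaged log2 change was −0.41 (SE 0.08, 0.755-fold, adjusted p = 0.0081) and held in all 20 alternatives. In the knockout alone the value was −0.47 (adjusted p = 0.0552), and it passed with DESeq2 (adjusted p = 0.0030), with the muscle covariate (adjusted p = 0.0307) and without library 8, 9 or 12 (adjusted p 0.0169 to 0.0462).

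Adamts14 had 13.2, 16.6 and 16.7 CPM in the knockout with ethanol, against 22.5, 20.6 and 25.3 CPM in the knockout with PBS. The wild-type libraries had 16.9, 14.1 and 11.7 CPM with ethanol and 25.1, 15.6 and 22.9 CPM with PBS, where library 8 lay inside the ethanol range. It fell by 0.56 on the log2 scale averaged over genotypes (SE 0.13, 0.676-fold, adjusted p = 0.0190), and the call was lost only without library 3 (−0.52, adjusted p = 0.0551). Adamts3, the third N-proteinase, was at −0.42 averaged (SE 0.16, adjusted p = 0.116), and it passed without library 9 (−0.53, adjusted p = 0.0295) and with the muscle covariate (adjusted p = 0.0489). In the knockout Adamts14 was not called, but passed in the fit of only the knockout libraries (−0.56, adjusted p = 0.0166) and without libraries 8, 9 and 12 (adjusted p = 0.0187).

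Adamts18 had the largest change of all 40 members. It had 1.66, 1.85 and 1.02 CPM in the knockout with ethanol, against 4.95, 7.67 and 6.45 CPM in the knockout with PBS. Wild-type levels were 1.94, 1.93 and 1.21 CPM with ethanol, against 6.44, 10.1 and 6.81 CPM with PBS. The highest ethanol library was below the lowest PBS library by more than the range within the ethanol groups. Its log2 change was −2.08 in the knockout (SE 0.28, 0.237-fold, adjusted p = 0.0056), −2.19 in wild type (SE 0.28, 0.219-fold, adjusted p = 0.0109) and −2.13 averaged (SE 0.20, 0.228-fold, adjusted p = 0.00035). The gene (ENSMUSG00000053399, chromosome 8, 113697126 to 113848738, minus strand) held 23 to 221 counts per library. It was called in all 21 alternatives in the knockout, all 20 averaged and 19 of 21 in wild type, where the fit of only the 6 wild-type libraries (−2.18, adjusted p = 0.120) and the fit without libraries 8, 9 and 12 (−1.72, adjusted p = 0.0615) did not pass.

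Adamts17, an ADAMTS gene in which human mutations cause a Weill-Marchesani-like syndrome of short stature, had 2.35, 2.86 and 1.39 CPM in the knockout with ethanol and 3.80, 3.19 and 3.39 CPM in the knockout with PBS. In the wild type, 1.75, 2.35 and 2.37 CPM were measured with ethanol, against 4.07, 3.68 and 3.57 CPM with PBS. No ethanol library overlapped a PBS library, and it fell by 0.73 on the log2 scale averaged over genotypes (SE 0.16, 0.602-fold, adjusted p = 0.0162). Within wild type it passed only without library 6 (−0.81, adjusted p = 0.0467) and with DESeq2 (adjusted p = 0.0496). The other two genes of the group, Adamts6 and Adamts10, were not called, nor were Adamts7 and Adamts12, which cleave cartilage oligomeric matrix protein. Adamts10 was at −0.20 averaged (SE 0.07, adjusted p = 0.105) and had 117, 110 and 99.4 CPM in the knockout with ethanol, against 130, 133 and 136 CPM in the knockout with PBS. In wild type its groups overlapped, at 120, 118 and 97.1 CPM with ethanol and 135, 104 and 125 CPM with PBS (log2 difference −0.12, adjusted p = 0.638). Adamts10 passed averaged when libraries 8, 9 and 12 were left out (−0.22, adjusted p = 0.0259), when library 8 alone was (−0.25, adjusted p = 0.0397) and with the muscle covariate (adjusted p = 0.0413), and in the knockout without those 3 libraries (adjusted p = 0.0179) and in the fit of only the knockout libraries (adjusted p = 0.0163).

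None of the 5 ADAMTS-like genes and none of the 4 TIMPs was called in any ethanol comparison. At an unadjusted p under 0.05 there were 0 in the knockout, and Adamtsl1 and Timp3 in wild type and averaged, where 16.4%, 16.0% and 26.2% of all genes were under it in the knockout, in wild type and averaged. With DESeq2 Timp3 was called in the averaged comparison (0.38, adjusted p = 0.0097), as it was by edgeR without library 10 (0.43, adjusted p = 0.0348), and limma-trend called none of the 9. Adamtsl1 was called averaged without library 12 (−0.81, adjusted p = 0.0165) and without libraries 8, 9 and 12 (−0.99, adjusted p = 0.0081), and so was Adamtsl4 without those 3 libraries (0.64, adjusted p = 0.0294) and with the muscle covariate (0.47, adjusted p = 0.0269). Timp3, which is held in the matrix, had 160, 168 and 201 CPM in the knockout with ethanol, against 132, 138 and 149 CPM in the knockout with PBS. Its wild-type values were 124, 163 and 166 CPM with ethanol and 127, 86.6 and 130 CPM with PBS. The knockout groups did not overlap, and the averaged log2 difference was 0.37 (SE 0.11, adjusted p = 0.0612).

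Timp2 had 341, 377 and 263 CPM in the knockout with ethanol and 305, 349 and 328 CPM in the knockout with PBS. Wild-type bones held 302, 341 and 390 CPM with ethanol and 400, 345 and 369 CPM with PBS, and the groups overlapped in both genotypes. Its log2 difference was 0.00 in the knockout (approximate 95% interval −0.25 to 0.25). Timp1, an inhibitor often induced with inflammation, had 18.8, 11.01 and 12.1 CPM in the knockout with ethanol and 15.3, 17.5 and 20.0 CPM in the knockout with PBS. The wild-type libraries had 17.2, 14.0 and 12.1 CPM with ethanol and 13.8, 14.3 and 22.1 CPM with PBS, again with overlap. Of the 3 most abundant ADAMTS-like genes, Adamtsl4 had 11.6, 12.5 and 15.2 CPM in the knockout with ethanol, against 6.69, 9.52 and 10.1 CPM in the knockout with PBS, without overlap (log2 difference 0.58, SE 0.30, adjusted p = 0.386). In wild type Adamtsl4 had 9.64, 10.99 and 17.01 CPM with ethanol and 6.40, 12.98 and 13.9 CPM with PBS, which overlapped (0.18, adjusted p = 0.825). Adamtsl2 had 22.2, 28.8 and 14.1 CPM in the knockout with ethanol and 22.2, 25.5 and 24.9 CPM in the knockout with PBS, which overlapped. In wild type Adamtsl2 had 14.7, 24.1 and 22.1 CPM with ethanol, against 27.3, 24.8 and 31.4 CPM with PBS, without overlap, and its averaged log2 difference was −0.31 (adjusted p = 0.300). Adamtsl5 overlapped in both genotypes, with 9.66, 9.50 and 8.10 CPM in the knockout with ethanol and 7.49, 9.06 and 7.77 CPM in the knockout with PBS, and with 5.95, 9.06 and 13.4 CPM in wild type with ethanol and 9.18, 16.4 and 16.5 CPM in wild type with PBS.

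Summed over each family, Mmp transcripts were at 2437 to 2492 CPM in the knockout with ethanol, against 1922 to 2147 CPM in the knockout with PBS. In wild type they were at 2614 to 3070 CPM with ethanol, against 2078 to 2487 CPM with PBS. The Adamts sum was 403 to 426 CPM in the knockout with ethanol and 476 to 514 CPM in the knockout with PBS, and in wild type it was 360 to 427 CPM with ethanol and 397 to 480 CPM with PBS, which overlapped. The Timp sum overlapped in both genotypes, at 482 to 563 CPM in the knockout with ethanol and 456 to 509 CPM in the knockout with PBS. Mmp9, Mmp8 and Mmp13 make up most of the Mmp sum, so it follows those 3 genes.

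Summed osteoblast markers were lower with ethanol in the knockout without overlap. In wild type the sums overlapped, although each marker was lower by point estimate. The 10 osteoblast markers, none of which is a member, summed to 18140, 24972 and 10947 CPM in the knockout with ethanol, against 34725, 38277 and 41800 CPM in the knockout with PBS. In wild type the sums were 23868, 21838 and 11730 CPM with ethanol, against 23662, 24827 and 30594 CPM with PBS. Wild-type ethanol library 10 was above PBS library 7 in this sum. Of the members that fell, library 10 had Mmp16, Adamts18, Adamts17, Adamts2 and Mmp23 below every wild-type PBS library. Its Adamts14 value of 16.9 CPM was above the 15.6 CPM of PBS library 8. In the averaged comparison 7 of the 10 osteoblast markers fell and none rose, with a median log2 difference of −0.75. All 10 were below 0 within each genotype. Their median was −0.95 in the knockout, where 3 fell, and −0.53 in wild type, where 0 were called. Libraries 6 and 12, with the lowest sums, also held the lowest 2 values of Mmp16, Adamts18, Adamts2 and Mmp23. This was not so for Adamts14 and Adamts17. Library 6 held 16.7 CPM of Adamts14, above the 13.2 CPM of library 4. Library 12 held 2.37 CPM of Adamts17, above the 1.75 CPM of library 10. Both 6 and 12 are ethanol libraries, and the share of all genes with this pattern was not counted. Mmp13 differed in direction from the list. The 10 osteoclast markers had a median of 0.32 averaged, with 3 that rose (Calcr, Ocstamp and Tcirg1). By genotype the osteoclast median was 0.08 in the knockout and 0.60 in wild type. The 8 chondrocyte markers summed to 84.0 to 222 CPM in the knockout with ethanol and 265 to 344 CPM in the knockout with PBS, and in wild type they overlapped, at 111 to 254 CPM with ethanol and 231 to 314 CPM with PBS. Of the 7 osteocyte markers 6 were below 0 averaged and 1 of them fell, with a median of −0.40, and their sums were 1796 to 3415 CPM in the knockout with ethanol, 2839 to 3275 CPM in the knockout with PBS, 2277 to 3280 CPM in wild type with ethanol and 3272 to 4750 CPM in wild type with PBS. By genotype the osteocyte median was −0.33 in the knockout and −0.57 in wild type. The part of these cell types in the results was not tested.

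**Figure D4:**
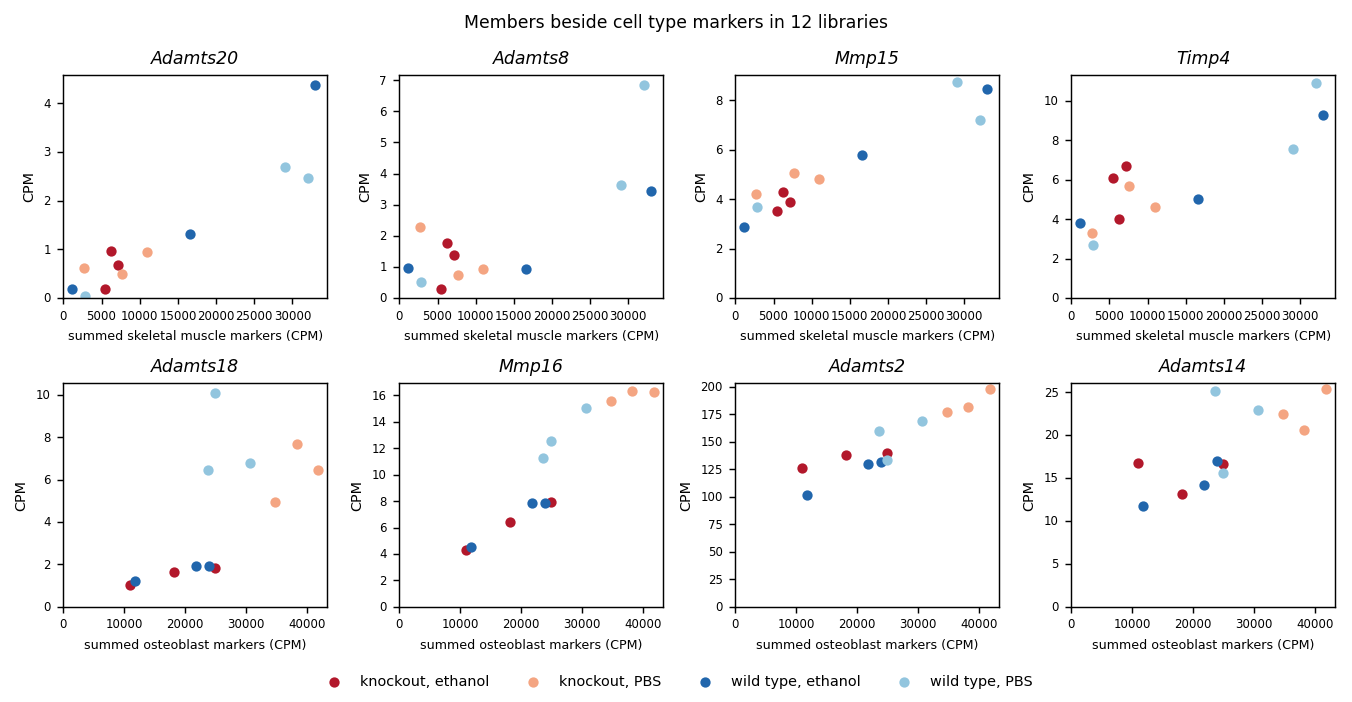
CPM of 4 members against the summed CPM of the skeletal muscle markers (top) and of 4 members against that of the osteoblast markers (bottom), 1 point per library, coloured by group. The 3 libraries richest in muscle markers (8, 9 and 12) hold the highest values of Adamts20, Adamts8, Mmp15 and Timp4. The 2 libraries poorest in osteoblast markers (6 and 12) hold the lowest values of Adamts18, Mmp16 and Adamts2. In the Adamts14 panel library 12 is lowest, followed by library 4 and not by library 6.

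Some members stood higher in the muscle-rich libraries, at a share near that over all genes, and are named here after their values were seen. Adamts20, Adamts8, Mmp15, Timp4 and Adamtsl5 were each higher in all 3 muscle-rich libraries than in all other 9 libraries. These are 5 of 40 members (12.5%), against 1789 of the 18161 genes tested (9.85%). Adamts20 had 2.45 to 4.37 CPM in those 3 libraries, against 0.0403 to 1.31 CPM in the other 9. Adamts8, an ADAMTS that can cut aggrecan, had 3.42 to 6.85 CPM, against 0.292 to 2.28 CPM in the other 9. Timp4, an inhibitor known for its expression in heart and muscle, had 4.00, 6.72 and 6.10 CPM in the knockout with ethanol, 3.29, 4.62 and 5.70 CPM in the knockout with PBS, 3.78, 5.02 and 9.27 CPM in wild type with ethanol and 2.70, 7.56 and 10.9 CPM in wild type with PBS. Their wide spread leaves the ethanol effect poorly measured: the SE of the wild-type log2 difference was 1.08 for Adamts20, 0.92 for Adamts8 and 0.49 for Timp4.

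The knockout and wild type showed no difference past the test in any of the 40 members, under either gavage. No member was called under ethanol, under PBS or averaged over gavage, where 0.011% of all genes were called in each case (2 of 18161). The count was also 0 with DESeq2, which called 13 of 16972 genes under ethanol, 2 of 32939 under PBS and 125 of 11865 averaged over gavage. With limma-trend it was 0 as well, where 2 of 17408 genes were called in each case. At an unadjusted p under 0.05 the counts were 1 member under ethanol (Mmp9), 6 under PBS and 6 averaged, against 1050, 1350 and 2591 of all genes. Under ethanol 0 members were higher and 2 lower in the knockout without overlap, where 7.12% and 4.04% of all genes were. Under PBS 7 were higher and 3 lower, where 8.98% and 5.16% of all genes were.

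The 2 members without overlap under ethanol were Mmp9 and Mmp12. Mmp9 had 985, 922 and 912 CPM in knockout ethanol libraries, against 1275, 1036 and 1230 CPM in wild type (log2 difference −0.33, SE 0.11, approximate 95% interval −0.55 to −0.11, adjusted p = 0.820). Neutrophil markers summed to 24993 to 28124 CPM in the knockout and 25070 to 39836 CPM in wild type with ethanol, and osteoclast markers to 1842 to 2282 CPM in the knockout and 2103 to 2981 CPM in wild type with ethanol. Their part in the Mmp9 value was not tested. Mmp12 had 0.897, 0.588 and 0.621 CPM in the knockout and 1.11, 1.13 and 0.948 CPM in wild type (−0.59, SE 0.36, adjusted p = 0.820).

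Under PBS the members with the smallest p among those without overlap were Adamtsl5, Mmp17, Adamts2 and Adamts9. Adamtsl5 had 7.49, 9.06 and 7.77 CPM in knockout PBS libraries, against 9.18, 16.4 and 16.5 CPM in wild type, where the 2 high values are the muscle-rich libraries 8 and 9 (log2 difference −0.79, SE 0.28, adjusted p = 0.605). Mmp17 (MT4-MMP) had 2.35, 2.01 and 2.36 CPM in the knockout and 1.89, 1.64 and 1.34 CPM in wild type (0.46, SE 0.18, adjusted p = 0.605). Adamts2 had 177, 182 and 198 CPM in the knockout and 160, 134 and 169 CPM in wild type (0.27, SE 0.11, adjusted p = 0.605), beside osteoblast marker sums of 34725 to 41800 CPM in the knockout and 23662 to 30594 CPM in wild type. Adamts9 had 37.9, 31.8 and 35.5 CPM in the knockout and 28.8, 27.3 and 29.4 CPM in wild type (0.30, SE 0.13, adjusted p = 0.605).

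The ethanol effect itself was not shown to differ between genotypes for any member. The interaction called 0 of 40 members, as in 0.0% of all genes with edgeR. It also called 0 of 40 with DESeq2, where 1 of 32939 genes was called, and 0 of 40 with limma-trend, where 0 of 17408 were. At an unadjusted p under 0.05 there was 1 member, Mmp11 (log2 difference of effects −0.45, SE 0.19, unadjusted p = 0.0325 in edgeR, not past adjustment), against 359 of all genes. The approximate interval of the difference for Mmp16 was −1.09 to 0.21, which includes 0. Its call in the knockout and not in wild type is therefore not shown to be a difference between genotypes.

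Genes that regulate, activate, inhibit or serve as substrates of these enzymes were read from lists chosen for their role. In the averaged comparison 10.8% of all genes were called, with 5.02% that rose and 5.81% that fell. Whether any list differs from these shares was not tested. Of 15 AP-1, RUNX and other regulators of MMP genes, 2 rose and 1 fell in the averaged ethanol comparison. Fos rose by 0.56 (SE 0.08, adjusted p = 0.0024) and Junb by 0.21 (log2, SE 0.04, adjusted p = 0.0146), both AP-1 subunits, and Runx2, the osteoblast master regulator, fell by 0.24 (SE 0.05, adjusted p = 0.0187). These 3 were also called in the knockout (Fos 0.62, Junb 0.36 and Runx2 −0.39), where 1.87% of all genes were. None of the 15 was called in wild type, where 1.26% of all genes were. Runx2 is also among the osteoblast markers counted above. The list's median was 0.06.

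Of 13 measured matrix substrates, 3 fell and 1 rose averaged over genotypes, where 5.81% and 5.02% of all genes did. Their median was −0.43, and Col1a1 is also among the osteoblast markers counted above. Bcan (brevican, a proteoglycan that ADAMTS4 and ADAMTS5 cut in brain) was at −2.08 (SE 0.28, adjusted p = 0.0017), Col1a1 (the main collagen of bone) at −0.81 (SE 0.22, adjusted p = 0.0476) and Bgn (biglycan) at −0.29 (adjusted p = 0.0428), while Fn1 (fibronectin) rose by 0.49 (adjusted p = 0.0070). Among 12 other matrix proteases and convertases, Bmp1, the procollagen C-proteinase, fell by 0.57 (SE 0.12, adjusted p = 0.0140) and Pcsk6 fell by 0.62 (adjusted p = 0.0367). Furin, which cuts the propeptide of membrane-type MMPs and ADAMTSs, rose by 0.16 (adjusted p = 0.0359).

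The sister family of ADAM proteases had 1 member that fell, Adam12, by 0.83 averaged (SE 0.10, adjusted p = 0.0012), and 1 that rose, Adam33, by 0.52 (adjusted p = 0.0054), of 10. For this and the next lists, 10.8% of all genes were called averaged. In a list of other inhibitors, clearance receptors and related genes, 8 were measured. Its only call was Spock2 (testican 2), which is not itself taken as an inhibitor here and rose by 1.43 (SE 0.24, adjusted p = 0.0067). Of 14 genes of fibrillin microfibrils, to which ADAMTS-like proteins bind, Eln (elastin) rose by 0.62 (adjusted p = 0.0430), Fbn1 (fibrillin 1) fell by 0.26 (adjusted p = 0.0366) and Efemp2 (fibulin 4) fell by 0.35 (adjusted p = 0.0220). None of 9 measured genes of plasminogen activation, the protease system that activates several pro-MMPs, was called, and the smallest p belonged to Anxa2 (−0.23, adjusted p = 0.0601) and Plat (−0.36, adjusted p = 0.126). Counts of those lists within wild type were 1 call among the ADAMs (Adam12, −0.71, adjusted p = 0.0443) and 1 among the substrates (Bcan, −1.95, adjusted p = 0.0469), where 1.26% of all genes were called.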

How the data were processed

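Bulk RNA-seq libraries of femoral shaft RNA were compared in 4 groups of 3. The deposited counts per gene are whole numbers with no normalization, as the values show. The other deposited table gives a signal that equals each count divided by 1 factor per library, as a comparison of the tables showed, and covers 17408 genes whose mean count exceeds 10. Per the submitters' processing notes, the tools were STAR 2.5.2b, Trimmomatic 0.36 and featureCounts and Subread 1.5.2, with no roles given, and the build was GRCm38. Their settings, the strand setting, the annotation release and the handling of reads that map to several places are not given here by the labels. Every column of values was used (0 left out).

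Low genes were removed by filterByExpr (at least 10 counts in enough libraries and 15 in all), which left 18161. TMM factors ran from 0.908 to 1.05. One edgeR 4.0.16 quasi-likelihood model in R 4.3.3 with 1 coefficient per group (8 residual degrees of freedom) gave all comparisons, with calls at an adjusted p under 0.05 over every gene tested. CPM is the count per library total after TMM scaling, and lengths per kilobase and coordinates come from the union of exons in GENCODE M21. The SE is the size of the log2 difference over the square root of the F statistic. Intervals use a normal approximation and are narrower than the test implies. The code was tested on simulated data. Alternatives were RLE factors, no filter, at least 5 CPM in 3 libraries, the muscle markers as a covariate, only the groups compared, leaving out libraries 8, 9 and 12 or each library in turn, DESeq2 1.42.0, limma-trend 3.58.1 on log2 of the deposited signal plus 1, and, added after the data were seen, DESeq2 without independent filtering. Values by library in the groups compared are given for members called in any comparison, for the 4 members of smallest p among those without overlap in each comparison within a stratum, for the TIMPs and for the 3 most abundant members of each other family. Other members are named where their subgroup is described. Members and lists were chosen with earlier results of these data known. One gene that overlaps a member is not reported here.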

Additional observations from a re-analysis of the deposited data

How the results depend on the processing

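The number of members called after ethanol depended on the fit. In the knockout, 3 members became 5 with the muscle markers as a covariate, 5 with DESeq2, 5 with DESeq2 without independent filtering, 7 in a fit of only the 6 knockout libraries and 7 without libraries 8, 9 and 12, and leaving out single libraries gave 1 to 5. The calls over all genes moved as well in the knockout, being 339 as reported, 808 with the covariate, 943 with DESeq2, 1677 in the fit of only the knockout libraries and 1342 without libraries 8, 9 and 12. In wild type, 2 members became 4 with DESeq2, where all genes called were 713 against 229, 0 in a fit of only the 6 wild-type libraries, where 9 members had an unadjusted p under 0.05 and 4 of all genes were called, and 0 without libraries 8, 9 and 12, where 13 members had an unadjusted p under 0.05 and 37 of all genes were called. Leaving out single libraries gave 1 to 4. The averaged count of 9 was 6 to 13 over its alternatives, where all genes called were 1040 to 2722 against 1967. The counts for knockout versus wild type and for the interaction were 0 in all of theirs. Over all genes, DESeq2 called 125 of 11865 for knockout versus wild type averaged over gavage, against 2 as reported. No called value of a member changed sign in the alternatives run. The averaged difference of 8 uncalled members took both signs, among them Timp2 (−0.15 to 0.01), Timp4 (−0.18 to 0.51), Adamts1 (−0.02 to 0.23), Adamts8 (−1.07 to 0.33) and Adamts20 (−0.67 to 1.95). The averaged and interaction effects have no fit of only 2 groups, and some low members had no value under the 5 CPM filter. With the longest transcript as length, 18 of the 40 levels moved by more than their spread. No paired analysis was possible because the replicate numbers run from 1 to 12 and no number is shared between groups. The wild-type libraries that differ in muscle RNA limit precision there, and members with few counts, such as Adamts20 (1 to 83 per library), were poorly measured.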
